A study of Homo sapiens with 6 samples.

Results

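HERV-H is a family of human endogenous retroviruses, and LTR7 and its variants are the long terminal repeats (LTRs) that flank it. Members were the LTR elements that RepeatMasker names HERVH-int (the internal part of the provirus, between its LTRs), LTR7, LTR7A, LTR7B, LTR7C or LTR7Y. These were 9490 of the 720177 LTR elements in the files: 5767 HERVH-int, 2324 LTR7, 15 LTR7A, 823 LTR7B, 314 LTR7C and 247 LTR7Y. RNA-seq of total RNA was available for 4 cell lines of atypical teratoid rhabdoid tumor (AT/RT), a childhood brain tumor with loss of SMARCB1, a subunit of the SWI/SNF chromatin remodeler. A single library represented CHLA 02, and likewise CHLA 05, whereas CHLA 04 and CHLA 06 were each sequenced as 2 technical replicates, so every line stood for 1 biological sample. All lines came from ATCC, were untreated, and were kept in DMEM:F12 with EGF, basic FGF and B-27. No control line and no cells with SMARCB1 restored were among the libraries. No test between cell lines can be made from 1 sample a line, so differences are given as values beside the difference between technical replicates. SMARCB1 RNA was at 13.5 to 26.2 gene TPM (a level normalised for length and depth) and SMARCA4, the ATPase of the same complex, at 104 to 342 gene TPM. Which part of SMARCB1 those reads cover was not examined.

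A complete HERV-H provirus reads 5′ LTR, internal region, 3′ LTR, and its RNA starts in the 5′ LTR and ends in the 3′ LTR. In human pluripotent stem cells, HERV-H is among the most abundantly transcribed retroviral families, and the pluripotency factors OCT4 (POU5F1), NANOG, SOX2 and KLF4 bind LTR7. LTR7Y is the variant linked with the naive, pre-implantation state, and LTR7B and LTR7C are further relatives of LTR7. In most differentiated cells these elements are silenced by KRAB zinc finger proteins with TRIM28 and SETDB1 and by DNA methylation.

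The ends of the LTRs were searched for short motifs, among them TATAAA, the letters of a TATA box, and AATAAA, the letters of a polyadenylation signal, in GRCh38 (hg38). Among LTRs of at least 350 bp, TATAAA lay in the final 150 bases of 1921 of 2166 LTR7 (88.7%), 172 of 190 LTR7Y (90.5%) and 202 of 268 LTR7C (75.4%) elements. It lay there in 7 of 597 LTR7B elements (1.17%) and in 16.5% of the 328189 LTR elements of all other names. AATAAA was found in 182 LTR7Y (95.8%), 495 LTR7B (82.9%), 1314 LTR7 (60.7%) and 121 LTR7C (45.1%) elements, against 27.1% of the other names. The related signal ATTAAA was found in 689 LTR7 (31.8%) and 101 LTR7C (37.7%) elements but in 0 of 190 LTR7Y elements, against 16.9% of the other names. Only the strand of the LTR was searched. Of the LTRs of the 5 LTR7 names, TATAAA was held by 53 of 83 detected (63.9%) and 2255 of 3144 undetected elements (71.7%), and AATAAA by 66.3% and 65.4%. LTRs of at least 350 bp from the 8 loci with the most reads and from the loci high in CHLA 05, apart from the locus on chromosome 8, were aligned over their whole length. Among these, LTR7Y elements of different loci had a median identity of 94.7% (82.4% to 97.2%, 98 pairs), and LTR7Y against the other names 79.5% (70.4% to 95.9%, 194 pairs). The 5′ and 3′ LTR of the chromosome 13 locus were 98.4% identical, with 7 differences over 434 aligned columns. Copies this close can exchange reads, and how reads with several matches were assigned is not given in the sources used here.

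Reads per library were recovered from TPM as whole multiples of what 1 read is worth. The libraries held 355302 to 511408 reads on LTR elements and 10265899 to 20520229 reads on Ensembl transcripts. On an LTR element of 1000 bp, 1 read was worth 0.899 to 1.34 TPM. LTR TPM was scaled over LTR elements alone and cannot be compared with gene TPM. The first replicate of CHLA 04 was the shallowest library. Intervals and floors cover counting error only, and the spread between cultures of a line was not measured.

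Most members had no read. Of 9490 members, 1614 (17.0%) had at least 1 read in a library, and 228 (2.40%) had at least 10 reads in a library, the minimum for calling an element detected. Over all LTR elements 2.76% reached that minimum, so members were not detected more often than LTR elements in general. The detected members were 143 HERVH-int, 42 LTR7, 20 LTR7B, 14 LTR7C and 9 LTR7Y elements, and none of the 15 LTR7A elements had a read. When pieces on the same strand no more than 1000 bp apart were joined, the members formed 2598 loci. Of these, 160 had at least 10 reads in a library, and 51 of the 160 reached 10 reads in all 4 lines. Another 55 did so in 1 line only: 27 loci for CHLA 05, 14 for CHLA 04, 13 for CHLA 06 and 1 for CHLA 02. The same split by line over all LTR elements is not given here, so it is not read as a result about members. Under the 4-fold rule described below, CHLA 05 also had the highest share over all detected LTR elements (3.39%) and CHLA 02 the lowest (0.0756%). By element, 44.3% of the 228 detected members reached 10 reads in 1 line only, against 37.6% of all 19846 detected LTR elements. In all 4 lines it was 20.2% against 20.9%, so members were near the background at this minimum. At a minimum of 1 read, 25 of the 228 detected members (11.0%) had reads in 1 line only, compared with 1.42% of all detected LTR elements. Joined into loci, 10 of 160 (6.25%) had reads in 1 line only at that minimum.

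HERV-H and LTR7 elements took 1.81% of LTR reads in CHLA 02 (Wilson 95% interval 1.77% to 1.85%). In CHLA 05 they took 2.43% (2.38% to 2.48%). The technical replicates gave 1.07% and 1.38% for CHLA 04 and 1.21% and 1.43% for CHLA 06. CHLA 05 was thus above every other library, CHLA 02 came next, and the ranges of CHLA 04 and CHLA 06 overlapped, with technical replicates of a line apart by more than the counting error. In bulk RNA, fewer cells with such transcripts and less RNA per cell cannot be told apart. The mean of CHLA 05 was 1.98 times that of CHLA 04, the lowest line, and 1.96 times that of CHLA 06, the lowest line when reads were set against transcript reads instead. HERVH-int carried the difference, with 2.03% in CHLA 05 and 1.37% in CHLA 02 against 0.678% to 1.03% in the other libraries. By mean share it ranked 7th of 572 LTR names in CHLA 05, 14th in CHLA 02, 19th in CHLA 06 and 29th in CHLA 04. Its highest line mean was 2.54 times its lowest. That ratio ranked 12th among the 110 LTR names with a mean share of at least 0.2%, where the median ratio was 1.37. The LTRs alone, without HERVH-int, stayed between 0.388% and 0.463% of LTR reads in every library. Within them LTR7Y stood out, at 0.0783% in CHLA 05 and 0.0107% to 0.0193% elsewhere.

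**Figure D1:**
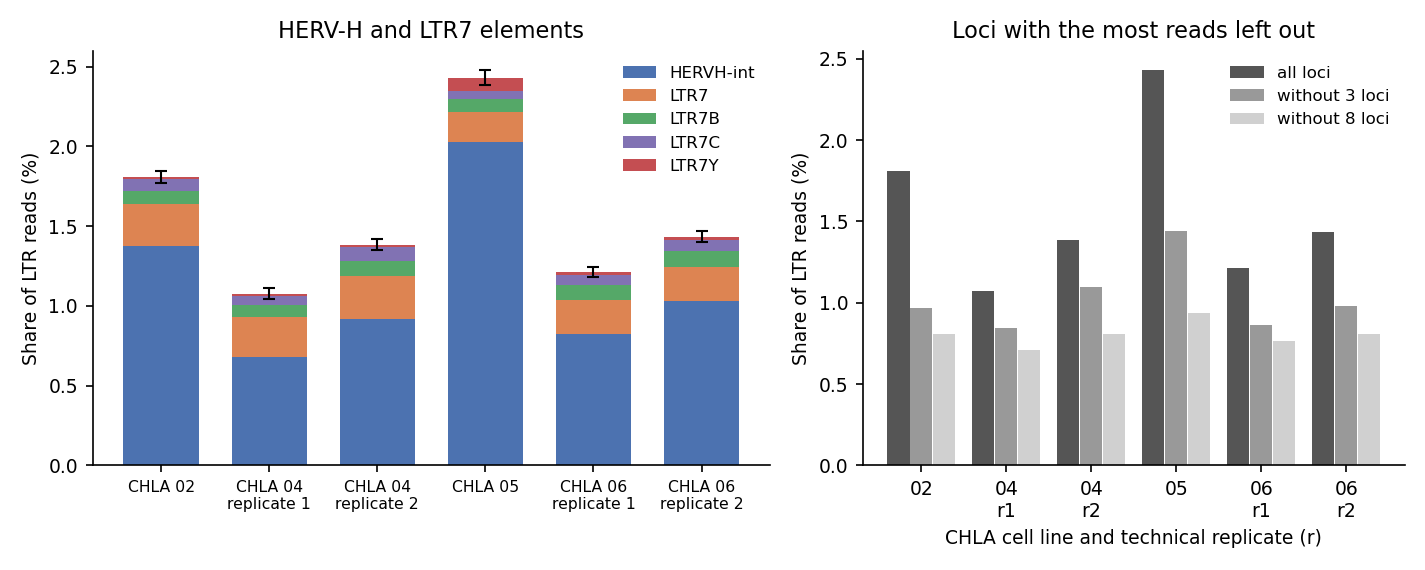
Left, share of LTR reads (%) on HERV-H and LTR7 elements in each of the 6 libraries, stacked by name, with Wilson 95% intervals of the total as error bars. Right, the same share for all loci, without the 3 and without the 8 loci with the most reads, where CHLA 05 falls from 2.43% to 1.44% and 0.935%.

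A few loci made up these shares. In CHLA 05, 3 loci held 50% of the member reads, and in CHLA 02 also 3. In CHLA 06 it took 8 and 6 loci, and in CHLA 04 13 and 10 loci. The locus with the most reads in a library held between 12.8% and 39.0% of that library's member reads. Without the 3 loci with the most reads over all libraries, the share was 0.965% in CHLA 02 and 1.44% in CHLA 05, with 0.844% and 1.10% for the replicates of CHLA 04 and 0.863% and 0.977% for those of CHLA 06. Without the top 8 loci it was 0.708% to 0.810% outside CHLA 05 and 0.935% in CHLA 05. The higher total of CHLA 02 therefore rested on those loci, while CHLA 05 kept the highest share.

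Proviruses with LTR7Y at both ends had far more reads in CHLA 05 than in the other libraries. There were 72 such loci, with a median length of 5600.5 bp in the annotated pieces. They held 44 reads in CHLA 02, 35 and 71 reads in CHLA 04, 5278 reads in CHLA 05, and 40 and 40 reads in CHLA 06. In shares of LTR reads this was 1.27% in CHLA 05 and 0.00831% to 0.0139% in the other libraries, which did not overlap. Without the 8 loci with the most reads, which include a pair of this kind, 559 reads remained in CHLA 05 and 35 to 71 in the others. At least 1 read fell on 28 of the 72 loci in CHLA 05, compared with 6 to 13 in the other libraries. CHLA 05 had the highest TPM over LTR elements at 26 of the 44 LTR7Y-flanked loci with any read (59.1%). The same count was 68 of 253 loci flanked by LTR7 (26.9%), 17 of 57 flanked by LTR7B (29.8%) and 3 of 15 flanked by LTR7C (20.0%). A locus with reads in CHLA 05 alone enters this count through CHLA 05 and is highest there by construction. These shares thus restate where reads fell and add no separate support. The grouping by terminal LTR was made after the values were seen, and no test was run on it. LTR7Y elements of different loci had a median identity of 94.7% in the alignments, and how reads with several matches were assigned is not given. Whether reads from the chromosome 13 locus were counted at other LTR7Y-flanked loci was not tested, also where the top loci are left out. The loci with reads can therefore not be counted as separate events. Only LTRs were aligned, not internal regions. The LTR7Y pair of the chromosome 19 locus was less close, at 82.4% to 84.6% identity to the LTR7Y elements of other aligned loci.

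**Figure D2:**
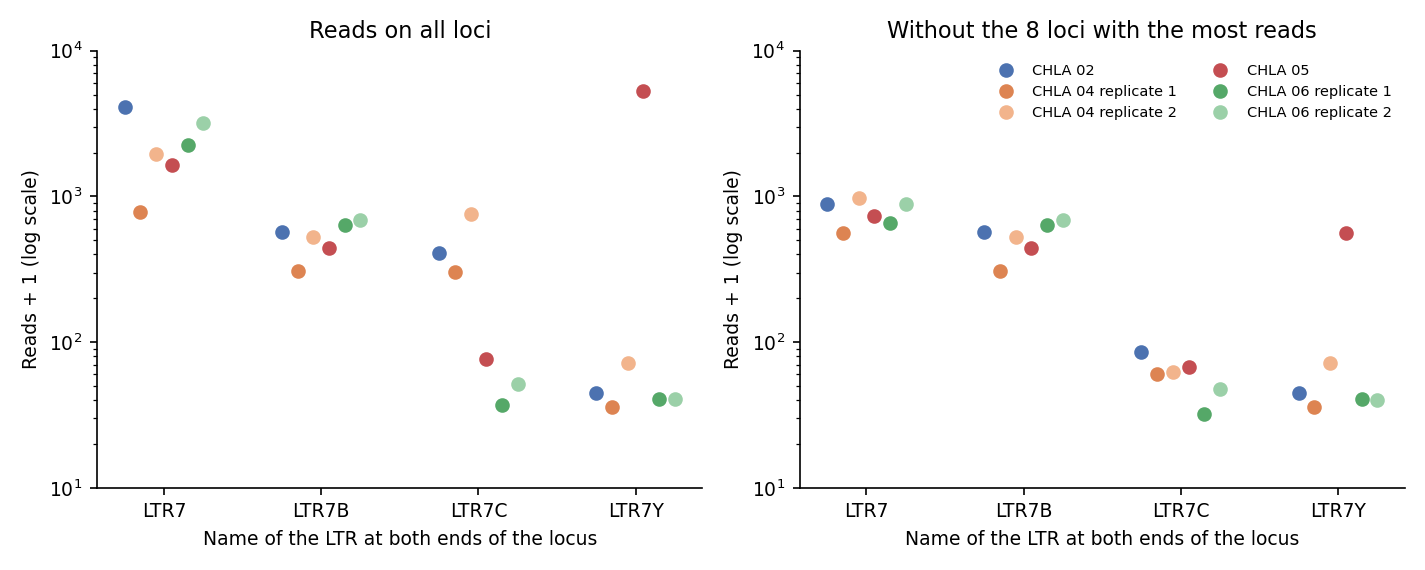
Reads + 1 (log scale) summed over proviral loci with the same LTR name at both ends, 1 point per library, for all loci on the left and without the 8 loci with the most reads on the right. CHLA 05 lies apart for LTR7Y (5278 reads, and 559 without the top loci, against 35 to 71), but within the spread of the other libraries for LTR7 and LTR7B.

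Elements were counted as high in a line when its every library had at least 4 times the TPM of every library of the other lines, with libraries under 3 reads set to 3 reads. In CHLA 05, 25 of the 228 detected members passed (11.0%), against 3.39% of all detected LTR elements. In CHLA 06, 5 members passed (2.19%), against a background of 0.962%. In CHLA 02 and CHLA 04 no member passed, where the background was 0.0756% and 0.312%. Without either of its technical replicates, 1 member passed in CHLA 04. The 25 elements of CHLA 05, 20 HERVH-int and 5 LTRs, lay in 12 loci, so they are not 25 separate events, and 6 of them belonged to the chromosome 13 locus. Of the 12 loci, 8 had LTR7Y at both ends and a further locus, on chromosome 1, had it at the 3′ end. Of the 11 detected loci with LTR7Y at both ends, 10 reached 10 reads in CHLA 05 alone, so their detection rests on that library. The same held for 6 of 44 detected loci flanked by LTR7 and 1 of 16 flanked by LTR7B. The exception among the 11 lay on chromosome 22 from 32502754 to 32508503, opposite to SYN3 in GENCODE v44. It had 35 reads in CHLA 02 and 53 in CHLA 05, with 28 and 51 for the replicates of CHLA 04 and 34 and 26 for those of CHLA 06, close in all lines.

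The chromosome 13 locus (chr13:109265090-109271116, plus strand) held 3917 reads in CHLA 05 and 0 reads in each of the other 5 libraries. That was 39.0% of all member reads of CHLA 05 and 709 TPM over LTR elements. The longest internal piece, of 3531 bp, had 3044 of these reads, which was at least 835-fold higher than the floor of 3 reads per library elsewhere. Ensembl release 82 has no gene here. GENCODE v44 annotates the noncoding gene LINC03061 on the same strand, but only over the 3′ part of the locus. No GENCODE v44 gene overlaps the 3531 bp piece or the next piece, of 405 bp, which had 66 reads. Most reads of the locus thus fell on pieces outside that gene. The nearest protein-coding genes in GENCODE v44 are MYO16, 57085 bp away, and IRS2, 481579 bp away. MYO16, an unconventional myosin, was at 2.31 gene TPM in CHLA 05 and at 0 to 0.940 gene TPM elsewhere. IRS2, an adaptor of insulin receptor signaling, was at 126 gene TPM in CHLA 05, 32.2 in CHLA 02, 104 and 63.6 in CHLA 04, and 0.0476 and 0.158 in CHLA 06.

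The chromosome 19 locus (chr19:5548576-5553212, plus strand) had 802 reads in CHLA 05, 1 read in a CHLA 06 library and 0 in the other 4. It ends 4955 bp from TINCR, a gene of epidermal differentiation, which was at 27.1 gene TPM in CHLA 05 and 1.37 to 15.7 elsewhere. The LTR7Y-flanked locus at chr10:90294983-90300722 had 140 reads in CHLA 05 and none in the other libraries. On chromosome 17 from 11971756 to 11976947, 75 reads fell in CHLA 05, 1 in CHLA 02, 1 and 7 in CHLA 04, and 0 in both libraries of CHLA 06. A lower level, 22 to 42 reads in CHLA 05 and at most 2 reads in any other library, was seen at 3 more loci on chromosomes 18, 2 and 3.

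Some of these loci lie in genes that were also highest in CHLA 05. The locus at chr8:90090224-90095868 (133 reads in CHLA 05, 0 in the others) overlaps an exon of CALB1, which encodes the calcium-binding protein calbindin, on the same strand. CALB1 was at 53.2 gene TPM in CHLA 05, 1.44 in CHLA 02, 2.35 and 3.10 in CHLA 04 and 0 in CHLA 06. LSAMP, a neuronal cell adhesion gene, holds the chromosome 3 locus (chr3:116105357-116111228) in an intron, on its strand, and was at 30.9 gene TPM in CHLA 05 and 0.0620 to 1.27 elsewhere. SCIN, which encodes an actin-severing protein, has an exon in an LTR7B-flanked locus (chr7:12659788-12665594) with 40 reads in CHLA 05. Its level was 13.0 gene TPM in CHLA 05 and at most 0.352 gene TPM elsewhere. Reads that start in such a gene and reads that start in the provirus cannot be told apart in these files. VRK2, on the opposite strand to the chromosome 2 locus (chr2:58113432-58119130), went the other way, with 0.555 gene TPM in CHLA 05 and 12.5 to 33.0 elsewhere.

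The locus with the most reads over all libraries was an LTR7 provirus on chromosome 10 (chr10:89284720-89290887, plus strand). It had 3116 reads in CHLA 02 and 161 in CHLA 05, with 106 and 548 for the replicates of CHLA 04 and 1563 and 2196 for those of CHLA 06. In TPM over LTR elements this was 499 for CHLA 02, 28.5 for CHLA 05, 22.8 and 79.4 for CHLA 04, and 258 and 339 for CHLA 06. CHLA 02 and CHLA 06 were thus above CHLA 04 and CHLA 05, and the technical replicates of CHLA 04 differed more from each other than those of CHLA 06. The locus overlaps an exon of the noncoding RNA RP11-149I23.3 on the same strand, which was at 122 gene TPM in CHLA 02, 9.29 in CHLA 05, 15.3 and 44.9 in CHLA 04, and 62.7 and 72.9 in CHLA 06. It also lies within LIPA, the lysosomal acid lipase gene, on the opposite strand, and in GENCODE v44 it overlaps an exon of the interferon-induced gene IFIT2 on the same strand. LIPA split the lines the same way, at 982 gene TPM in CHLA 02 and 101 in CHLA 05, with 113 and 189.6 for the replicates of CHLA 04 and 852 and 1207 for those of CHLA 06. The neighbouring gene IFIT3, 36420 bp away, did not. Its level was 32.7 gene TPM in CHLA 02, 17.5 and 17.2 in CHLA 04, and at most 6.71 elsewhere. CH25H, on the other side, was low and highest in CHLA 06 (2.76 and 1.60) and CHLA 02 (0.709). No level is given here for IFIT2. The library kit kept strand, but whether the counting used it is not given in the sources used here, so sense and antisense reads cannot be told apart.

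The locus with the 3rd most reads, at chr6:122840217-122845567 on the plus strand, has no 5′ LTR in the annotation. It had 815 reads in CHLA 02 and, for the replicates of CHLA 04, 715 and 908 reads, but 15 in CHLA 05 and 0 in both CHLA 06 libraries. A provirus flanked by LTR7C on chromosome 11 (chr11:78080836-78087032, plus strand) split the lines the same way, with 324 reads in CHLA 02, 245 and 690 in CHLA 04, but 10 in CHLA 05 and 5 and 4 in CHLA 06. CHLA 02 and CHLA 04 were at least 59.9 TPM over LTR elements at this locus, and CHLA 05 and CHLA 06 at most 2.05. At both loci the lines fell into the same groups without overlap, CHLA 02 with CHLA 04 and CHLA 05 with CHLA 06. No general grouping of the lines is drawn from these loci. Of the 160 detected loci, 11 reached 10 reads in CHLA 02 and CHLA 04 alone, and 9 in CHLA 02 and CHLA 06 alone. Such counts over all LTR elements are not given here. On chromosome 6 from 40861398 to 40868767, minus strand, CHLA 04 had 109 and 400 reads, CHLA 05 had 276 and CHLA 02 had 58, while CHLA 06 had 4 reads in each library. At chr1:68386004-68391992, where the flanking LTRs are named LTR7, CHLA 05 had 487 reads against 3 to 124 in the others. These LTRs were 94.5% to 95.6% identical to the LTR7Y pair of the chromosome 13 locus. They are thus as close to it as LTR7Y copies are to each other, and the caution on exchanged reads holds here too.

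The locus with the 4th most reads differed less between the lines. It lies within ZNF107, a zinc finger gene on chromosome 7 (chr7:64679550-64686902), and is intronic in Ensembl release 82 and overlaps an exon in GENCODE v44. It had 300 reads in CHLA 02 and 510 in CHLA 05, with 126 and 369 for the replicates of CHLA 04 and 378 and 684 for those of CHLA 06. ZNF107 itself was at 11.8 to 38.2 gene TPM. The TPM of the locus over LTR elements, 23.3 to 90.7, differed by less than 4-fold over all libraries. CHLA 02 and CHLA 04 were at 23.3 to 45.9 and CHLA 05 and CHLA 06 at 53.6 to 90.7. The gap between these ranges was smaller than the difference between technical replicates, at 23.3 and 45.9 for CHLA 04 and 53.6 and 90.7 for CHLA 06. No grouping of the lines is drawn from this locus.

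**Figure D3:**
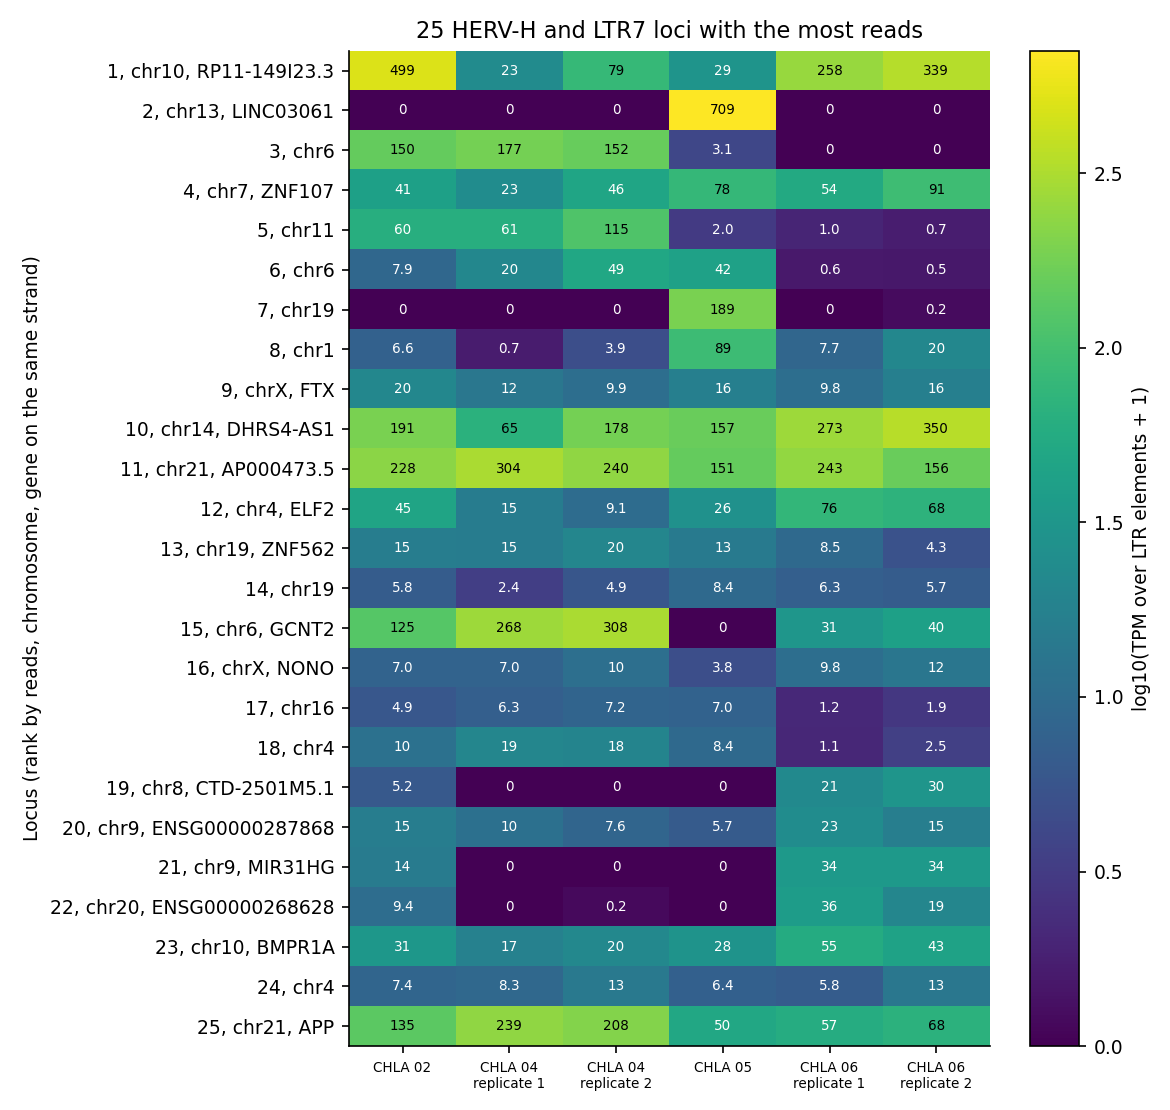
TPM over LTR elements (numbers in the cells; color, log10 of TPM + 1) of the 25 HERV-H and LTR7 loci with the most reads, in 6 libraries, named by rank, chromosome and a gene on the same strand from Ensembl release 82 or, failing that, GENCODE v44. Locus 2 (709 TPM) and locus 7 (189 TPM) are filled in CHLA 05 alone, locus 3 and locus 5 in CHLA 02 and CHLA 04, and loci 19, 21 and 22 in CHLA 06 and more weakly in CHLA 02.

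CHLA 06 had its own loci, at lower levels. The noncoding gene CTD-2501M5.1 on chromosome 8 held 4 of its 5 high elements. An LTR7 in an exon of that gene had 23 and 29 reads in CHLA 06, 3 in CHLA 02 and 0 in CHLA 04 and CHLA 05. The HERV-H provirus next to it, in the same gene, had 118 and 175 reads in CHLA 06, 30 in CHLA 02 and 0 in the other libraries. The remaining element was an LTR7 in an intron of MIR31HG, the host gene of a microRNA, with 18 and 21 reads in CHLA 06 and 3 in CHLA 02. CTD-2501M5.1 reached 5.31 gene TPM and MIR31HG 3.64 gene TPM in CHLA 06, and both were at 0 in CHLA 04 and CHLA 05. Without the second replicate of CHLA 06, 8 elements passed instead of 5, and relative to transcript reads 2 passed. A locus on chromosome 20 had the same order, with 168 and 96 reads in CHLA 06, 45 in CHLA 02 and at most 1 elsewhere.

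Reads were spread over the provirus, but at 4 of the 6 most abundant loci with both LTRs the 5′ LTR held few of them. At the chromosome 13 locus the 5′ LTR7Y had 0 reads and the 3′ LTR7Y had 131 reads in CHLA 05. The internal region had 3786 reads, or 727 reads per kb, against 303 per kb on the 3′ LTR. At the chromosome 19 locus the values were 0 reads on the 5′ LTR, 53 on the 3′ LTR and 750 on the internal region, with all libraries summed. The LTR7 provirus on chromosome 10 had 110 reads per kb on the 5′ LTR, 1338 on the internal region and 1034 on the 3′ LTR. For the chromosome 11 provirus these were 58.2, 219 and 596 reads per kb. The pattern did not extend to all loci, and the minus-strand provirus on chromosome 6 had 176 reads per kb on the 5′ LTR and 99.5 on the 3′ LTR. Among 78 detected loci with an LTR at both ends, the 3′ LTR was the higher per length in 28, the 5′ LTR in 44, and they were equal in 6. No minimum length was set for this count, and some LTR pieces are fragments shorter than a read of 125 bp. An example is a 36 bp 5′ piece with 0 reads on chromosome 9. The medians were 14.1 reads per kb on the 5′ LTR, 13.0 on the internal region and 10.1 on the 3′ LTR. Among the 11 loci with LTR7Y at both ends, 6 were higher at the 3′ LTR, 2 at the 5′ LTR and 3 had no read on either.

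**Figure D4:**
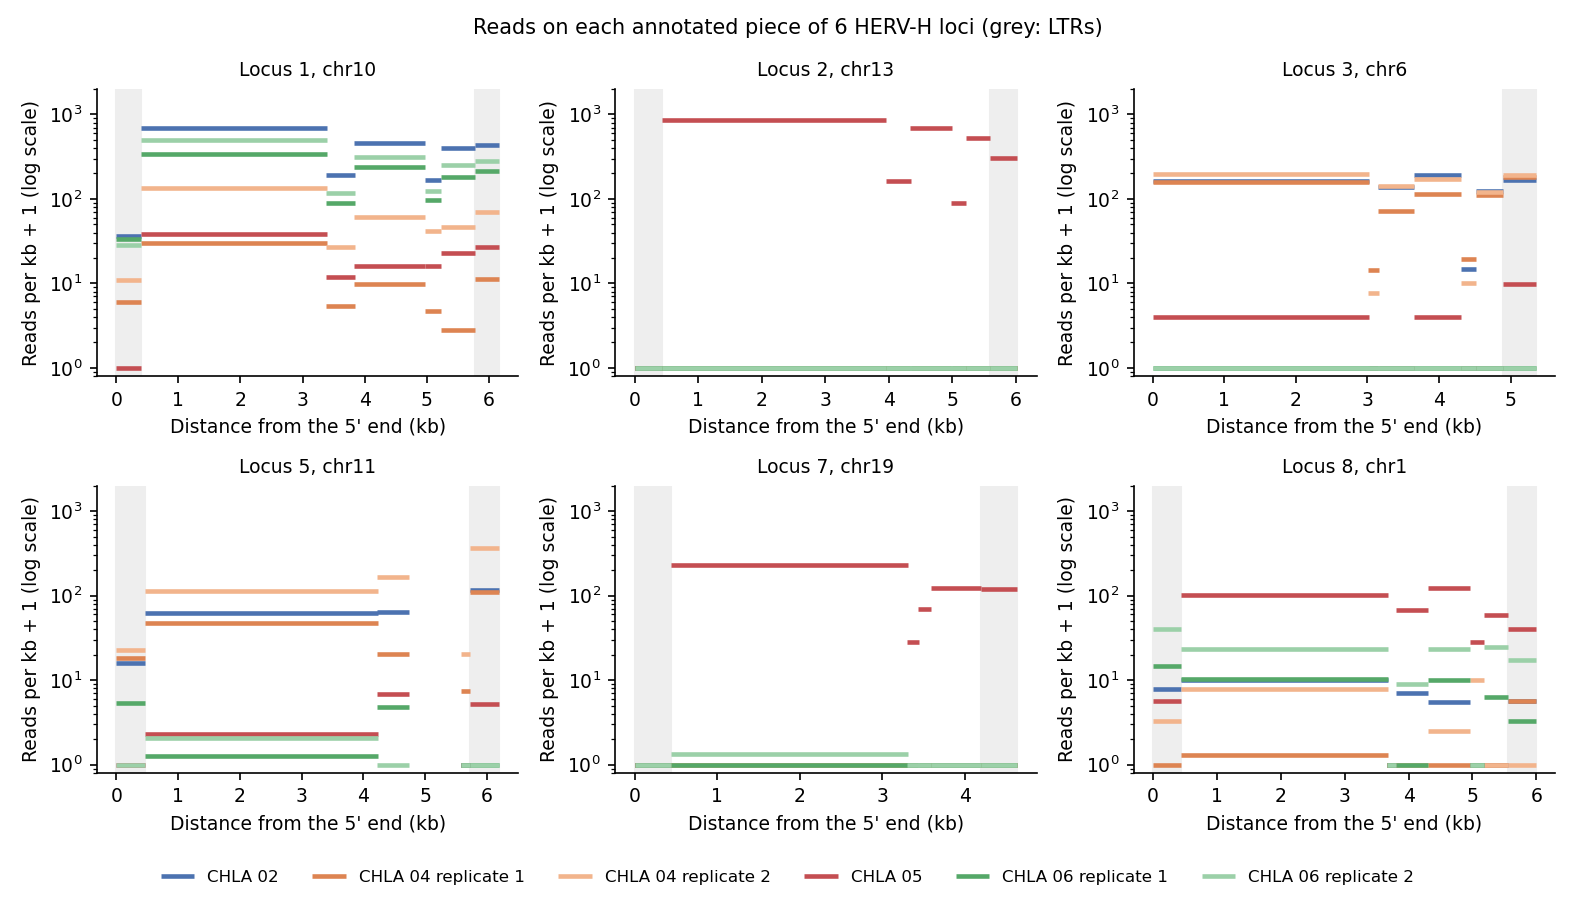
Reads per kb + 1 (log scale) on each annotated piece of 6 HERV-H loci, plotted by distance from the 5′ end of the locus in kb, 1 color per library, with LTRs in grey. At loci 2 and 7 CHLA 05 rises from 0 reads on the 5′ LTR to its highest level on the longest internal piece, and libraries drawn at the lowest line have 0 reads there.

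**Figure D5:**
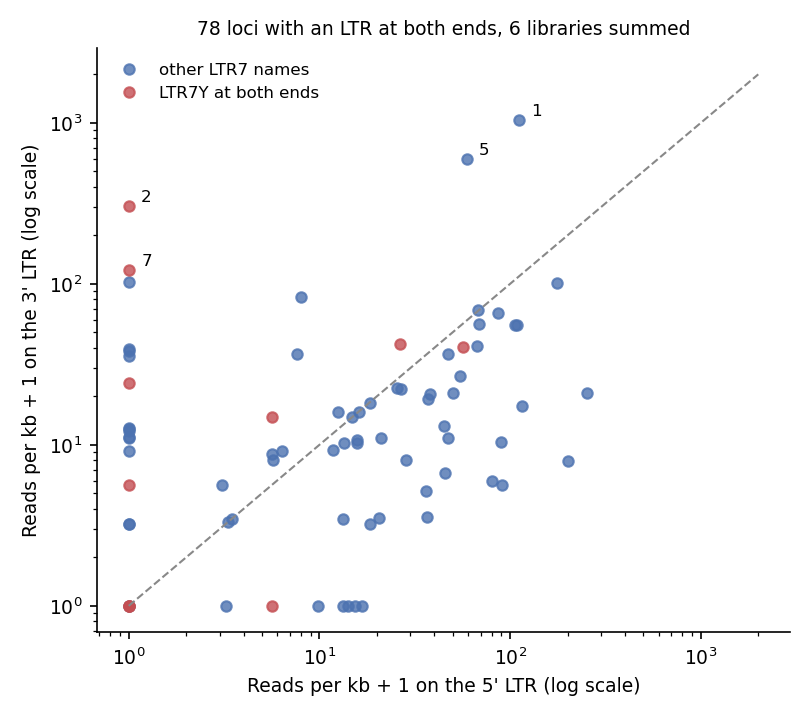
Reads per kb + 1 on the 5′ LTR (horizontal) and the 3′ LTR (vertical) of 78 detected proviral loci, both on log scales and summed over the 6 libraries, with equal values on the dashed line and loci named by their rank. Loci 1, 2, 5 and 7 lie above the line, while 44 of the 78 loci lie below it.

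Solitary LTRs made up a separate class. Of 1271 loci with an LTR and no internal piece, 52 were detected (4.09%), compared with 78 of 947 proviruses with both LTRs (8.24%). Detection by reads favours long loci, and the median length was 429 bp for the former and 5780 bp for the latter. Per length the order was reversed, with 13481 reads per Mb on LTRs without an internal piece and 4641 on proviruses with both LTRs, or 2515 without the 3 loci with the most reads. The 2 highest LTRs by mean TPM over the 4 lines were solitary copies within noncoding transcripts. An LTR7 in an exon of AP000473.5 on chromosome 21, part of the microRNA host gene MIR99AHG in GENCODE v44 (chr21:16631053-16631452), had 92 reads in CHLA 02, 55 in CHLA 05, 91 and 107 in CHLA 04, and 95 and 65 in CHLA 06. An LTR7C in an exon of DHRS4-AS1 (chr14:23939576-23940044) had 90 reads in CHLA 02, 67 in CHLA 05, 23 and 93 in CHLA 04, and 125 and 171 in CHLA 06. Both were present in every library.

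Some intronic copies had the same order over the lines as their genes. An LTR7 in an intron of GCNT2, which encodes an enzyme of branched blood group I antigen synthesis, had 63 reads in CHLA 02 and 0 in CHLA 05, with 100 and 171 for the replicates of CHLA 04 and 15 and 21 for those of CHLA 06. GCNT2 itself was at 115 gene TPM in CHLA 02, 279 and 299 in CHLA 04, 20.0 and 22.0 in CHLA 06, and 2.65 in CHLA 05, the same order of lines. An LTR7 in an intron of APP, the amyloid precursor gene, had 54 to 92 reads in CHLA 02 and CHLA 04 and 18 to 28 reads in CHLA 05 and CHLA 06. APP was at 2213 to 4922 gene TPM in the first pair of lines and 684 to 755 in the second. An LTR7 in an intron of MAML2, a coactivator of Notch, was nearly level, with 38 to 50 reads in all libraries and 59.1 to 98.4 gene TPM. All 3 elements have the orientation of their gene.

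Detection differed by position relative to genes, for members and for other LTR elements. Members in introns with the orientation of the gene were detected in 52 of 670 cases (7.76%), and those with the opposite orientation in 20 of 1976 (1.01%). Over all LTR elements these shares were 11.7% and 0.576%. Members between genes made up 67.2% of members and 43.6% of their reads, while for all LTR elements such positions held 59.5% of elements and 26.7% of reads. Exonic members were 2.95% of members with 21.0% of the reads, against 2.17% of all LTR elements with 15.3% of the reads. The longest piece of the chromosome 10 locus with the most reads is among them. Between genes, the chromosome 13 locus alone held 3917 reads, all in CHLA 05. These shares of reads thus rest in part on a few loci, and no trait of the family is read from them. Without elements that overlap an exon, the share of LTR reads was 1.24% in CHLA 02 and 2.26% in CHLA 05.

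Genes associated with HERV-H in stem cells were mostly at or near 0. The list held 9 genes, of which 8 stayed under 1 gene TPM in every library and 4 were at 0 in all. ESRG and LINC-ROR, stem cell noncoding RNAs made largely of HERV-H, were above 0 in 1 library each, at 0.0411 and 0.0450 gene TPM. The 8 members within ESRG and the 6 within LINC-ROR had 0 reads in every library. HHLA1 and LINC00458 were at 0 as well. HHLA3 was the exception, at 8.10 gene TPM in CHLA 02 and 4.83 in CHLA 05, with 10.02 and 9.27 for the replicates of CHLA 04 and 9.75 and 7.43 for those of CHLA 06, with 12 to 28 reads on the 7 members within it.

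Of 8 factors that bind or activate LTR7 in stem cells, 4 were at 1 gene TPM or more in every library. POU5F1 was at 0.194 gene TPM in CHLA 05 and at 0 elsewhere, and NANOG stayed at or below 0.588. KLF4, a zinc finger factor that binds LTR7, was at 69.3 gene TPM in CHLA 05, 2.57 in CHLA 02, 2.22 and 1.13 in CHLA 04, and 1.31 and 1.64 in CHLA 06. SOX2 was at 4.03 gene TPM in CHLA 05 and at most 0.470 elsewhere. KLF4 and SOX2 were thus highest in CHLA 05, as were the reads on LTR7Y-flanked loci, and their part in that result was not tested. POU5F1, with 1 read, and TFCP2L1, at 0.214 gene TPM against at most 0.126 elsewhere, were also highest there. NANOG and MED6 were not. The coactivator EP300 was at 57.5 to 81.3 gene TPM and the Mediator subunit MED12 at 28.5 to 51.1, with CHLA 05 within the other lines for MED12 and lowest for EP300.

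Silencers of endogenous retroviruses were expressed throughout: 7 of 8 were at 1 gene TPM or more in every library, and ZNF534, a zinc finger protein directed at HERV-H, stayed under 1. ZNF534 was at 0 in CHLA 05 and at 0.210 to 0.743 gene TPM elsewhere. TRIM28, the corepressor of KRAB zinc finger proteins, was at 234 gene TPM in CHLA 02 and 317 in CHLA 05, with 462 and 419 for the replicates of CHLA 04 and 296 and 268 for those of CHLA 06. SETDB1, the histone H3 lysine 9 methyltransferase that TRIM28 recruits, was at 87.6 gene TPM in CHLA 05 and 42.7 to 73.2 elsewhere. CBX5, on the same list, was at 309 gene TPM in CHLA 05 and 186 to 291 elsewhere. CHLA 05 was within the range of the other lines for TRIM28, DNMT1, ATRX, DAXX and EHMT2 and the highest for SETDB1 and CBX5.

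Most markers of pluripotent cells were at or near 0. Of 12 markers, none was at 1 gene TPM or more in every library, 8 stayed under 1 in all, and TDGF1, DPPA2, DPPA4, ZFP42 and PRDM14 were at 0. Their summed level was 5.77 to 76.3 gene TPM. SALL4, an embryonic zinc finger factor, gave most of it outside CHLA 05, with 25.7 to 69.5 gene TPM there and 0.970 in CHLA 05. LIN28B, an RNA-binding protein of embryonic cells, was at 5.76 gene TPM or more in CHLA 02 and CHLA 04 and at most 0.111 in CHLA 05 and CHLA 06. Of 6 markers of neural progenitors, 3 were at 1 gene TPM or more in every library, and their order over the lines differed. VIM was highest in CHLA 06, at 19464 and 14708 gene TPM, against 4629 to 13742 elsewhere. PAX6 was at 0.604 and 0.937 gene TPM in CHLA 06, 15.8 to 29.7 in CHLA 02 and CHLA 04, and 36.9 in CHLA 05. NES was at 27.6 gene TPM in CHLA 05 and 5.21 to 25.6 elsewhere. MSI1 was at 316 and 227 gene TPM in CHLA 04, 236 in CHLA 05 and 109 in CHLA 02, but at most 8.26 in CHLA 06. SOX9 was at 228 gene TPM in CHLA 05, 7.71 in CHLA 02, 24.3 and 26.7 in CHLA 04 and at most 0.0657 in CHLA 06. SOX9, PAX6 and NES were thus highest in CHLA 05, while VIM, MSI1 and FABP7 were not. The part of these genes in the LTR7Y result was not tested. FABP7 was at 756 to 4102 gene TPM outside CHLA 06 and at 0.566 and 1.43 in CHLA 06.

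Technical replicates set the scale for these differences. Across the 228 detected members, Pearson's r of log2(TPM + 2) was 0.922 between the replicates of CHLA 04 and 0.932 between those of CHLA 06, as a description across elements that are not independent. At least 4-fold apart between the replicates were 8 members (3.51%) in CHLA 04, against 1.89% of all detected LTR elements, and 3 members (1.32%) in CHLA 06, against 1.04%. Of the 8 members in CHLA 04, 3 belonged to the chromosome 10 locus. Between libraries of different lines, 7.02% to 36.8% of members were at least 4-fold apart, over 13 pairs, compared with 7.83% to 30.2% of all detected LTR elements. The highest shares were those between CHLA 05 and CHLA 06, and the lowest was that between CHLA 02 and the shallow CHLA 04 library.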

How the data were processed

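Total RNA libraries (TruSeq Stranded Total RNA, 125 bp paired-end reads) of 4 AT/RT cell lines were analysed from the files of 6 libraries. The submitters' processing notes name CASAVA 1.8.2, FastQC and Trimmomatic. The authors mapped trimmed reads to GRCh38 with the CLCbio RNA-Seq tool under default parameters and deposited TPM for 173113 Ensembl (release 82) transcripts and, from a separate mapping, TPM for 720177 RepeatMasker LTR elements. The LTR TPM was scaled over LTR elements alone and rounded to 2 decimals. For FastQC, Trimmomatic and the CLCbio tool the version, and for the counting the use of strand and the handling of reads with several matches are not given in the sources used here.

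Reads were recovered from TPM times length as whole multiples of the step of 1 read (within 0.1), which held for 100% of values above 0 on LTR elements and at least 99.8% on transcripts, and the recovery was checked on simulated data. Gene TPM is the sum over a gene's transcripts. Members were detected at 10 reads in a library and joined into loci within 1000 bp. No test was run, since each line had 1 sample, and labelled groups are the cell lines. Positions come from the files, LTR sequences for the motif search and alignments were read from hg38, which is GRCh38, and GENCODE v44 gave further gene names. The LTR sequences are not reported here. Python 3.11.15, pandas 2.3.3, bedtools 2.31.1, pysam 0.24.0 and statsmodels 0.14.6 were used.

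The rule named, among detected members, the 10 HERVH-int elements and the 10 LTRs highest by mean TPM, the 4 largest folds in a line, the 8 loci with the most reads, the genes of the lists and host genes of these. Loci, host genes and neighbours named beyond it were chosen after their values were seen. The members and lists were chosen with earlier results of these data known. Alternatives covered read minimum, TPM minimum, detection after the study's methods, fold, floor, joining distance, scale, pseudocount, exonic elements, top loci and each technical replicate.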

Additional observations from a re-analysis of the deposited data

How the results depend on the processing

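Counts followed the minimum. The 228 detected members became 407 at 5 reads, 129 at 20 reads, 1614 at 1 read, 357 at 10 TPM and 1262 under the detection of the study, and 215 to 226 without a technical replicate. Loci with reads rose from 160 to 256 at 5 reads. Elements high in a line numbered at 2-fold 1 for CHLA 02, 3 for CHLA 04, 50 for CHLA 05 and 15 for CHLA 06, 13 in CHLA 05 and 0 in CHLA 06 at 8-fold, 38 and 8 with a floor of 1 read, and 17 and 2 relative to transcript reads. Without a technical replicate the ranges were 0 for CHLA 02, 0 to 1 for CHLA 04, 25 to 31 for CHLA 05 and 5 to 8 for CHLA 06. The share of LTR reads fell without the top locus to 1.14% in CHLA 02 and 0.920% in CHLA 06. Without exonic elements it was 1.24% in CHLA 02, 2.26% in CHLA 05 and 0.908% in CHLA 06. Leaving out the top 3 or top 8 loci was added after seeing the data. It gave 0.965% and 0.810% in CHLA 02, 0.971% and 0.758% in CHLA 04, 1.44% and 0.935% in CHLA 05, and 0.920% and 0.787% in CHLA 06, and left 559 of 5278 reads on loci with LTR7Y at both ends in CHLA 05. Over single technical replicates the share was 1.07% to 1.38% in CHLA 04 and 1.21% to 1.43% in CHLA 06. Pearson's r between replicates was 0.795 in CHLA 04 and 0.826 in CHLA 06 without the filter on low values. CHLA 05 had the highest share in each of these settings. Where a value moved, the cause was not tested, except that a setting which leaves out loci, elements or libraries lowers or raises a count by its construction. The other 40 values stayed within 1.5 times of a count or within the replicate or counting error of a share. No paired analysis was possible because each cell line had 1 biological sample and the replicate numbers of CHLA 04 and CHLA 06 count technical replicates, so no test between lines was made. Depth limits what 0 reads means to fewer than 3 reads per library.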
